A study of Mus musculus with 6 samples.

Results

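The sequences described here are piRNA-sized reads without an exact match to an annotated transcript, though part of them lie close to one. They were selected on match and read sum, as distinct sequences of 25 to 31 nt with no exact match, sense or antisense, to any transcript of GENCODE release M21, and with 10 or more reads summed over the 6 libraries. Of 443816 sequences of that size and read count, 94856 (21.4%) met the rule. Another 338154 matched a transcript without matching an annotated small RNA and are the comparison set, called transcript-matched below. The read sum and the missing match selected the members, so their abundance is given as a description. Length was fixed by the rule, the read sum gives deep libraries more weight, and an added or changed base can itself remove an exact match. The first base and base 10 took no part in the choice.

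Small RNA was sequenced from cultured mouse spermatogonial stem cells, 1 library per group. The groups were mhen1-/- cells with NaIO4, mhen1-/- cells without treatment, mili-/- cells without treatment, RNA bound by a MILI antibody from wild type cells, wild type cells with NaIO4 and wild type cells without treatment. All cells descended from 1 culture line of a 15-day-old C57BL/6 and DBA2 F1 male with an actin-EGFP transgene (strain label C57BL/6), and were grown on embryonic fibroblast feeders, whose RNA can be in every total library. Each knockout came from Cas9 and guide RNA plasmids and picked single colonies, so a knockout is set against wild type through clones. Small RNA sequences hold neither marker mRNAs nor the edited sites, so the cell type and the knockouts were not checked. No group had a second library, so no difference below has a replicate check, no p-value is given and every comparison is between these libraries. Every 95% interval covers counting error only: that of a share is exact (Clopper-Pearson), and that of a ratio was taken on a log scale from the reads behind it.

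Piwi-interacting RNAs (piRNAs) are germ line small RNAs that guide Piwi proteins, such as MILI (gene Piwil2), against transposons and other transcripts. MILI-bound piRNAs usually begin with U, and those made by the ping-pong cycle carry A at base 10. Hen1 (gene Henmt1) methylates the 2′ hydroxyl of the last base of a mature piRNA. Without that group small RNA 3′ ends are open to trimming and to the addition of U or A, and NaIO4 oxidises them so that they do not enter a library. Sequences are given as DNA letters, with T for U.

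The members that carry the results fall into 3 sets, printed here because the later paragraphs turn on their last bases. Named members were picked by their reads in given libraries, so where such a member is most abundant follows in part from that choice and is a description. The first set begins with letters known from the 5′ ends of tRNAs and rRNA. The tRNA and rRNA names Glu, Asp, Gly, Lys, Pro and 28S are background knowledge, since the reference used here holds no sequence listed under these genes. The forms differ at their 3′ ends.
Glu 28-nt form: tcccacatggtctagcggttaggattcc
Glu 29-nt form: tcccacatggtctagcggttaggattcct
Asp 26-nt form: tcctcgttagtatagtggtgagtatc
Asp 29-nt form: tcctcgttagtatagtggtgagtatcccc
Gly 31-nt form: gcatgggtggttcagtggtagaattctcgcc
Lys 28-nt form: gcccggctagctcagtcggtagagcatg
Val 29-nt form: gtttccgtagtgtagtggttatcacgttc
28S 29-nt form: cgcgacctcagatcagacgtggcgacccg

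The second set has no reads in the Mili knockout and lies within 3 mismatches of a transcript in the sense. The first 3 were nearest to Gm30948, a long non-coding RNA gene at chr12:115262684-115287908 on the plus strand (GRCm38), with 2 mismatches for the 29-nt and the 27-nt member and 1 for the 26-nt form. The member named for H2ac15 was nearest to the histone gene Hist1h2bf, with 3 mismatches. It, the 26-nt form, and in the first set the Asp 26-nt, Lys 28-nt and Val forms were chosen after their values were seen.
Gm30948-near 29-nt member: tatgaggattgtcagcaaatggtagaagc
Gm30948-near 26-nt form of it: tatgaggattgtcagcaaatggtaga
Gm30948-near 27-nt member: tacccgccactggatgaatttaagcag
H2ac15 upstream member: taccatgcctgaacccgctaagtccgctc

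The third set matches a transcript apart from its last bases, and capitals mark those added bases. The Gm30948 and Gm45627 members were chosen after their values were seen, as the next most abundant of the kind in the untreated Hen1 knockout.
Mir182 member: tttggcaatggtagaactcacaccgT
Rny1 member: ttctcactactgcacttgactagtcttA
Gm24920 member: gggagatgaagaggacagtgactgagagaC
Gm38246 member: tgcaagctcagaacccaacaaacacgtgT
Gm45104 member: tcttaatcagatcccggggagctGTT
Gm30948 member: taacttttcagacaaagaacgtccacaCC
Gm45627 member: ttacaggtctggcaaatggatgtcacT

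Most members were rare and a few were very abundant. The median was 17 reads over the 6 libraries (quartiles 12 and 30) and the highest 167687. The top 10 held 11.6% of the members' reads, the top 100 31.7% and the top 1000 50.2%. Many were 3′ variants of 1 another, since the members shared 55099 different first 20 nt. Just inside the rule, 11322 members had exactly 10 reads, of which 82.4% began with T. Just outside it, 15196 unmatched sequences had 9 reads, of which 82.4% began with T.

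As a pool, the members held between 7.51% and 11.3% of every library, while the share of transcript-matched sequences ranged from 0.723% to 32.6%. Shares were taken of reads of 18 to 35 nt, which numbered 2604390 in Hen1 knockout cells with NaIO4, 11702714 in untreated Hen1 knockout cells, 4808088 in Mili knockout cells, 25240941 in the immunoprecipitate, 10282416 in wild type with NaIO4 and 7322408 in untreated wild type. The members made up 7.51% in Hen1 knockout cells with NaIO4, 11.3% in untreated Hen1 knockout cells, 9.65% in Mili knockout cells, 8.47% in the immunoprecipitate, 9.52% in wild type with NaIO4 and 9.78% in untreated wild type. Transcript-matched sequences made up 5.28% in Hen1 knockout cells with NaIO4, 17.6% in untreated Hen1 knockout cells, 0.723% in Mili knockout cells, 32.6% in the immunoprecipitate, 27.4% in wild type with NaIO4 and 15.5% in untreated wild type. The members' share in the Mili knockout was 0.987 times that in wild type (interval 0.983 to 0.99), against 0.0466 times for transcript-matched sequences (0.0461 to 0.0471). The members' pooled read share thus showed no loss like that of transcript-matched sequences. It combined unlike parts. Members of the abundant groups described below had 1.24 times the wild type share (1.23 to 1.25), and all other members 0.773 times (0.769 to 0.777). The ratio of NaIO4 over untreated for Hen1 knockout cells was 0.662 (0.659 to 0.665) for members and 0.30 (0.298 to 0.302) for transcript-matched sequences. For wild type cells the same ratio was 0.973 (0.97 to 0.976) for members and 1.77 (1.76 to 1.77) for transcript-matched sequences. The ratio of the Hen1 knockout over wild type was 1.16 and that of the immunoprecipitate over wild type 0.866 for members, against 1.13 and 2.1 for transcript-matched sequences. All of these comparisons except the NaIO4 ratio of the Hen1 knockout share the untreated wild type library. Several of the members' ratios change side of 1 with the total used, and the values are given in the closing section.

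The pool was not uniform, and its parts behaved differently. By their nearest transcript, 14108 members (14.9%) matched a longer transcript apart from 1 to 3 added 3′ bases, and 1816 matched an annotated small RNA in the same way. Another 26317 lay within 3 mismatches of a longer transcript and 2441 within 3 mismatches of a small RNA. The other 50174 (52.9%) had no transcript within 3 mismatches and are called unplaced. No genome sequence was used, so introns, intergenic regions and tRNA genes outside the gene-start windows used further on were not searched.

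The tailed members of longer transcripts took 0.313% in Hen1 knockout cells with NaIO4, 1.16% in untreated Hen1 knockout cells, 0.0202% in Mili knockout cells, 0.625% in the immunoprecipitate, 0.634% in wild type with NaIO4 and 0.424% in untreated wild type. That is 20.9-fold lower in the Mili knockout than in wild type (19.6 to 22.3), 2.73-fold higher in the Hen1 knockout than in wild type (2.7 to 2.76) and 1.5-fold higher in NaIO4-treated than in untreated wild type (1.48 to 1.52). With NaIO4 in the Hen1 knockout it was 3.69-fold lower (3.61 to 3.77). Near matches of longer transcripts took 0.699% in Hen1 knockout cells with NaIO4, 2.1% in untreated Hen1 knockout cells, 0.658% in Mili knockout cells, 2.19% in the immunoprecipitate, 2.17% in wild type with NaIO4 and 1.64% in untreated wild type, 2.49-fold lower in the Mili knockout than in wild type. NaIO4 over untreated gave 0.334 for the Hen1 knockout and 1.32 for wild type. Both classes were thus lower with NaIO4 in the Hen1 knockout and higher with it in wild type.

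As a class, tailed small RNAs were higher in the Mili knockout and lower in the immunoprecipitate than in wild type, but their types differed. In the order untreated wild type, Mili knockout and immunoprecipitate, those of the type miRNA had 23340, 26745 and 5995 reads, not scaled to depth. Those of the type snRNA had 891, 56 and 6273 reads, and those of the type lincRNA 302, 64 and 1381, so both went the other way. Entries of the type lincRNA are longer transcripts that hold rRNA and were counted here with the small RNAs. All tailed small RNAs together took 0.235% in Hen1 knockout cells with NaIO4, 0.272% in untreated Hen1 knockout cells, 1.15% in Mili knockout cells, 0.0793% in the immunoprecipitate, 0.132% in wild type with NaIO4 and 0.576% in untreated wild type. Their share was 2.0 times the wild type value in the Mili knockout and fell 4.37-fold with NaIO4 in wild type. Near matches of small RNAs took 1.11% in Hen1 knockout cells with NaIO4, 0.299% in untreated Hen1 knockout cells, 0.576% in Mili knockout cells, 0.206% in the immunoprecipitate, 0.724% in wild type with NaIO4 and 0.438% in untreated wild type. Entries of the type rRNA were nearest for more of those reads than any other type in each of the 6 libraries. The unplaced members took 5.15% in Hen1 knockout cells with NaIO4, 7.52% in untreated Hen1 knockout cells, 7.24% in Mili knockout cells, 5.37% in the immunoprecipitate, 5.86% in wild type with NaIO4 and 6.7% in untreated wild type. Their share in the Mili knockout was 1.08 times that in wild type, close to that of the whole pool, of which they are the largest class.

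First bases set these parts apart. Counting each member seen in a library once, T came first in 67.1% in Hen1 knockout cells with NaIO4, 80.0% in untreated Hen1 knockout cells, 29% in Mili knockout cells, 85.1% in the immunoprecipitate, 82.5% in wild type with NaIO4 and 75.9% in untreated wild type. Counting reads, it came first in 40.2% in Hen1 knockout cells with NaIO4, 54.5% in untreated Hen1 knockout cells, 31.4% in Mili knockout cells, 77.5% in the immunoprecipitate, 69.9% in wild type with NaIO4 and 50.7% in untreated wild type. The immunoprecipitate was highest and the Mili knockout lowest by either count. By reads, the other first bases in the Mili knockout were G at 41.9%, C at 17.5% and A at 9.1%, against 31.1%, 11.6% and 6.64% in untreated wild type. Transcript-matched reads began with T in 86.6% in Hen1 knockout cells with NaIO4, 91.8% in untreated Hen1 knockout cells, 24% in Mili knockout cells, 94.6% in the immunoprecipitate, 91.9% in wild type with NaIO4 and 89.8% in untreated wild type.

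Among the classes, 91.9% of the tailed members of longer transcripts, 84.4% of the near matches and 79% of the unplaced members began with T. For tailed and near-match small RNAs it was 53% and 51.9%. In the tailed members of longer transcripts the Mili knockout again stood apart, with T first in 23.3% of its 973 reads, against 89.4% of 31014 in untreated wild type.

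The enrichment of A at base 10 was small. Over distinct members, base 10 was A in 30.9%, against a median of 27.9% over the other positions from 2 to 25. Base 5, not base 10, had the most A, at 41.9%, and in transcript-matched sequences base 5 had 42.9% and base 10 30.4%. At base 10 the tailed members of longer transcripts had A in 35.1% and the near matches in 34.6%, against medians of 29% and 29% over their other positions. The unplaced members outside the abundant groups described below had 28.3%, against 27.5% elsewhere. By reads, A at base 10 of the members was 23.4% in Hen1 knockout cells with NaIO4, 19.7% in untreated Hen1 knockout cells, 15% in Mili knockout cells, 22.1% in the immunoprecipitate, 23% in wild type with NaIO4 and 19.4% in untreated wild type. Among transcript-matched reads that do not begin with T, where ping-pong partners are usually looked for, it was 46.2% in the untreated Hen1 knockout and 43.2% in untreated wild type. The tailed members of longer transcripts with another first base had 61.1% in the untreated Hen1 knockout and 55.1% in untreated wild type. All members with another first base had 12% in the untreated Hen1 knockout and 16.3% in untreated wild type, below the tailed class in both. In the same order it was 6.44% and 10.9% in the abundant groups described below, and 23.4% and 23.3% in all other members.

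Over all members the mean length was lower in the Hen1 knockout than in wild type, but not in every subset. Tailed small RNAs averaged 27.2 nt in the untreated Hen1 knockout and 26.9 nt in untreated wild type. Members of the abundant groups described below averaged 28.7 nt in the untreated Hen1 knockout and 28.6 nt in untreated wild type, and members with 100 or more reads 28.4 nt in the untreated Hen1 knockout and 28.4 nt in untreated wild type. The mean length by reads was 27.7 nt in Hen1 knockout cells with NaIO4, 28.1 nt in untreated Hen1 knockout cells, 28.4 nt in Mili knockout cells, 28.3 nt in the immunoprecipitate, 28.1 nt in wild type with NaIO4 and 28.3 nt in untreated wild type, with an SD over reads of 1.5 to 1.98 nt. Counting each member once it was 27.6 nt in Hen1 knockout cells with NaIO4, 27.8 nt in untreated Hen1 knockout cells, 28 nt in Mili knockout cells, 28 nt in the immunoprecipitate, 28.1 nt in wild type with NaIO4 and 28.1 nt in untreated wild type. Transcript-matched reads averaged 27.2 nt in Hen1 knockout cells with NaIO4, 27.2 nt in untreated Hen1 knockout cells, 28.6 nt in Mili knockout cells, 28 nt in the immunoprecipitate, 28 nt in wild type with NaIO4 and 28.1 nt in untreated wild type. The most frequent length of the members was 27 nt in Hen1 knockout cells with NaIO4, 27 nt in untreated Hen1 knockout cells, 31 nt in Mili knockout cells, 29 nt in the immunoprecipitate, 29 nt in wild type with NaIO4 and 28 nt in untreated wild type. In the Mili knockout the most frequent length was the upper limit of the rule, and forms longer than that are not members.

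MILI binding was read from the immunoprecipitate. At 10 or more reads there, 37652 members (39.7%) are counted as present in it, which is not a measure of enrichment. With a limit of 1 read the share was 88.1% and with a limit of 50 reads 5.21%. The Glu 28-nt form was counted as present at 0.0403 times its wild type share. Another 11261 had no read there, which at this depth allows up to 3 reads. Of the members present 88.5% began with T, and of those with no read 52.2%. The immunoprecipitate is the deepest library and enters the read sum of the rule, so its counts also helped to choose the members. By class, 45.1% of near matches of longer transcripts were present, 41.1% of the unplaced, 30.4% of near matches of small RNAs, 28.9% of tailed longer transcripts and 18.1% of tailed small RNAs. The members present held 67.3% of the members' reads in the Mili knockout and 72.5% in untreated wild type, so most member reads of the Mili knockout were of sequences also found in the immunoprecipitate.

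Ratios of single members were called past 2-fold where both libraries together had 50 or more reads, with 0.5 added to each count. In the immunoprecipitate against wild type, 6489 members had enough reads and 3213 (49.5%) were higher, against 57.9% of all sequences of the same size. Lower were 1141 (17.6%), against 7.98% of all. The median ratio was 1.98, against 2.42 over all sequences with enough reads. By class the median was 2.55 for tailed longer transcripts, 2.4 for their near matches, 1.79 for the unplaced, 0.87 for near-match small RNAs and 0.0352 for tailed small RNAs.

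Among members with enough reads, a minority was lost in the Mili knockout and most were not. These are the abundant end of the pool, 1985 of 94856 members, and the rarer ones could not be called singly. Of all members, 11402 (12%) had any read in the Mili knockout and 48411 (51%) in untreated wild type, the deeper library. Of 1985 members with enough reads, 409 (20.6%) were 2-fold or more lower in the Mili knockout than in wild type, against 46.1% of all sequences and 94% of the transcript-matched. Higher were 497 (25%), against 16.3% of all. A ratio of 0.1 or lower was found for 298 members, and 1079 stayed within 2-fold. Only 111 lay between these. Of the 298 members lowest in the Mili knockout, 86.2% began with T and 28.2% had A at base 10. Of those within 2-fold, 29.1% began with T and 19.6% had A at base 10.

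The lost members were few in reads. They held 0.106% of the reads of these 1985 members in the Mili knockout and 9.79% in wild type. With 50 or more reads in untreated wild type, 262 of 1281 members (20.5%) had no read in the Mili knockout. Among transcript-matched sequences it was 1724 of 1851 (93.1%). At an equal share, 50 wild type reads correspond to 32.8 in the Mili knockout, and no read there allows up to 0.624 RPM (reads scaled to a common total of reads of 18 to 35 nt). The classes differed in the same comparison: 32 of 39 tailed longer transcripts and 162 of 295 of their near matches were lower, against 206 of 1312 unplaced members and 3 of 194 tailed small RNAs.

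The 3 members with the most immunoprecipitate reads among those with none in the Mili knockout all began with T. The Gm30948-near 29-nt member had 18 RPM in Hen1 knockout cells with NaIO4, 62.6 in untreated Hen1 knockout cells, 0 in Mili knockout cells, 266 in the immunoprecipitate, 376 in wild type with NaIO4 and 215 in untreated wild type. Its ratio of NaIO4 over untreated was 0.288 (0.215 to 0.387) for Hen1 knockout cells and 1.75 (1.65 to 1.86) for wild type cells. Its 26-nt form, without the last 3 bases, had 15.4 RPM in Hen1 knockout cells with NaIO4, 67.3 in untreated Hen1 knockout cells, 0 in Mili knockout cells, 16.5 in the immunoprecipitate, 18.6 in wild type with NaIO4 and 9.56 in untreated wild type. The 26-nt form was picked as the most abundant of its group in the untreated Hen1 knockout, and the 29-nt form is the most abundant in untreated wild type, so their order in these libraries follows from the choice.
The Gm30948-near 27-nt member had 15.7 RPM in Hen1 knockout cells with NaIO4, 57.9 in untreated Hen1 knockout cells, 0 in Mili knockout cells, 145 in the immunoprecipitate, 177 in wild type with NaIO4 and 125 in untreated wild type, with the Mili knockout at 0 and wild type with NaIO4 highest. Another member of 29 nt, whose sequence is not shown, had 3.46 RPM in Hen1 knockout cells with NaIO4, 13.8 in untreated Hen1 knockout cells, 0 in Mili knockout cells, 271 in the immunoprecipitate, 272 in wild type with NaIO4 and 174 in untreated wild type. It was 0.0794 times the wild type share in the Hen1 knockout without treatment (0.0674 to 0.0935).

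Few members could be placed on the genome. The windows of 250 bases before to 50 after RefSeq gene starts (GRCm38.p6) held 800 members exactly. The H2ac15 upstream member lies at chr13:21754119-21754147 on the plus strand, 207 bases before the start of the histone gene H2ac15 and on the strand opposite to it. It had 0 RPM in Hen1 knockout cells with NaIO4, 4.19 in untreated Hen1 knockout cells, 0 in Mili knockout cells, 76.6 in the immunoprecipitate, 14.4 in wild type with NaIO4 and 10.8 in untreated wild type. It was picked for its reads in the immunoprecipitate. Of these, 95 lie in tRNA genes inside such windows. The Val 29-nt form matches the first bases of n-TVcac9, a valine tRNA gene at chr13:23446142-23446214, at chr13:23446186-23446214 on the minus strand. It had 285 RPM in Hen1 knockout cells with NaIO4, 1073 in untreated Hen1 knockout cells, 46.6 in Mili knockout cells, 496 in the immunoprecipitate, 639 in wild type with NaIO4 and 287 in untreated wild type. Its share was 3.74 times the wild type value in the untreated Hen1 knockout and 0.162 times in the Mili knockout. Only these windows were searched, so further copies may exist.

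A small number of abundant 5′ ends carried much of the pool. After the values were seen, groups of members sharing their first 20 nt with 5000 or more reads were set apart. There were 82 of them with 2030 members, and they took 3.64% in Hen1 knockout cells with NaIO4, 5.19% in untreated Hen1 knockout cells, 5.55% in Mili knockout cells, 2.94% in the immunoprecipitate, 3.38% in wild type with NaIO4 and 4.48% in untreated wild type. In the Mili knockout against wild type, 17 groups were lower by 10-fold or more, and all 17 of these began with T. Of the other 65 groups 20 began with T. By 2-fold or more, 26 of the 82 groups were lower in the Mili knockout, against 46.1% of all single sequences with enough reads. With NaIO4, 60 of the 82 groups were 2-fold or more lower in the Hen1 knockout and 28 in wild type. Of all single sequences with enough reads, 76.8% were lower in the Hen1 knockout and 10.3% in wild type.

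Forms that share a tRNA-like 5′ end and differ in their last bases moved differently across the libraries. The Glu 28-nt form had 1479.8 RPM in Hen1 knockout cells with NaIO4, 1627 in untreated Hen1 knockout cells, 2818 in Mili knockout cells, 127 in the immunoprecipitate, 1278 in wild type with NaIO4 and 3147 in untreated wild type. The Glu 29-nt form, 1 T longer, had 97.9 RPM in Hen1 knockout cells with NaIO4, 273 in untreated Hen1 knockout cells, 1035 in Mili knockout cells, 1035 in the immunoprecipitate, 2342 in wild type with NaIO4 and 936 in untreated wild type. The shorter form led in both knockouts and in untreated wild type, and the longer form led in the immunoprecipitate and in wild type with NaIO4, which are also libraries whose top members each was named from. In Hen1 knockout cells the ratio of NaIO4 over untreated was 0.909 (0.878 to 0.941) for the 28-nt form and 0.358 (0.315 to 0.407) for the 29-nt form. In wild type cells it was 0.406 (0.397 to 0.415) for the 28-nt form and 2.5 (2.44 to 2.57) for the 29-nt form, so NaIO4 turned the order of the forms round in wild type and not in the Hen1 knockout. In the Mili knockout the 29-nt form was 1.11 times its wild type share.
A second Glu-like group with 1 other base early in the sequence showed the same turn of order with NaIO4. Its 29-nt form was 0.712 times its wild type share in the Mili knockout (0.676 to 0.751). All sequences of 29 nt in that group, this form among them, made up 6.68% in Hen1 knockout cells with NaIO4, 13.6% in untreated Hen1 knockout cells, 24% in Mili knockout cells, 80.6% in the immunoprecipitate, 66.9% in wild type with NaIO4 and 28.2% in untreated wild type of that group's reads of 25 to 31 nt.

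The Asp-like group had the most reads of these groups over the 6 libraries and fell in the Mili knockout. Of its 250166 reads, 179868 were from the immunoprecipitate, the deepest library. In untreated wild type it had 9419 reads, against 32199 in the group of the Glu 28-nt and 29-nt forms. The Asp-like members together had 860.5 RPM in Hen1 knockout cells with NaIO4, 2942 in untreated Hen1 knockout cells, 281 in Mili knockout cells, 7126 in the immunoprecipitate, 2223 in wild type with NaIO4 and 1286 in untreated wild type. The 29-nt form alone had 87.9 RPM in Hen1 knockout cells with NaIO4, 394 in untreated Hen1 knockout cells, 23.7 in Mili knockout cells, 5922 in the immunoprecipitate, 919.7 in wild type with NaIO4 and 517 in untreated wild type, with the Mili knockout lowest. The 26-nt form, picked as the most abundant of the group in the untreated Hen1 knockout, had 315 RPM in Hen1 knockout cells with NaIO4, 862 in untreated Hen1 knockout cells, 26.8 in Mili knockout cells, 27.1 in the immunoprecipitate, 57.3 in wild type with NaIO4 and 45.6 in untreated wild type. The mean length of the group was 27.3 nt in Hen1 knockout cells with NaIO4, 27.6 nt in untreated Hen1 knockout cells, 29.8 nt in Mili knockout cells, 29.1 nt in the immunoprecipitate, 29.3 nt in wild type with NaIO4 and 29.3 nt in untreated wild type, so both Hen1 knockout libraries were shorter than both wild type libraries. The share of the Asp-like group's reads at 29 nt was 11.4% in Hen1 knockout cells with NaIO4, 15.3% in untreated Hen1 knockout cells, 8.5% in Mili knockout cells, 84.2% in the immunoprecipitate, 42% in wild type with NaIO4 and 41.3% in untreated wild type. The Gly 31-nt form had 1320.5 RPM in Hen1 knockout cells with NaIO4, 4278 in untreated Hen1 knockout cells, 2818 in Mili knockout cells, 108 in the immunoprecipitate, 509.7 in wild type with NaIO4 and 1293 in untreated wild type. The Lys-like group had a form of 28 nt with 34.6 RPM in Hen1 knockout cells with NaIO4, 370.3 in untreated Hen1 knockout cells, 44.9 in Mili knockout cells, 658 in the immunoprecipitate, 194 in wild type with NaIO4 and 165 in untreated wild type. Its 31-nt form, 3 bases longer, had 84.5 RPM in Hen1 knockout cells with NaIO4, 430.3 in untreated Hen1 knockout cells, 858 in Mili knockout cells, 961 in the immunoprecipitate, 179 in wild type with NaIO4 and 706 in untreated wild type. The Mili knockout held 0.272 times the wild type share of the 28-nt form and 1.21 times that of the 31-nt form.

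Members that begin like 28S rRNA were higher with NaIO4 in the Hen1 knockout, unlike the tRNA-like forms above. The 28S 29-nt form had 1489.8 RPM in Hen1 knockout cells with NaIO4, 454 in untreated Hen1 knockout cells, 379 in Mili knockout cells, 5.74 in the immunoprecipitate, 189 in wild type with NaIO4 and 301 in untreated wild type, with the immunoprecipitate lowest. A 27-nt member, 2 edits from the small nucleolar RNA Snord65, had 3202 RPM in Hen1 knockout cells with NaIO4, 656 in untreated Hen1 knockout cells, 1032 in Mili knockout cells, 6.1 in the immunoprecipitate, 978 in wild type with NaIO4 and 680.2 in untreated wild type. It was also lowest in the immunoprecipitate. Both were named for their abundance in the Hen1 knockout with NaIO4.

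Several abundant groups matched another group apart from a short gap near the 5′ end. Among the 82 groups, 12 lacked 1 to 4 neighbouring bases of another group and otherwise had the same first letters. The 4 pairs below, chosen after their values were seen, show gaps of 1 to 4 bases. Each gives the shorter 5′ end and then the longer one, with the absent bases in capitals at the leftmost place that fits.
Asp-like, shorter: tcctcgtatagtggtgagta
Asp-like, longer: tcctcGTTAgtatagtggtg
Glu-like, shorter: tccctggtctagtggttagg
Glu-like, longer: tcccTGGtggtctagtggtt
Gly-like, shorter: gcattgtggttcagtggtag
Gly-like, longer: gcattGgtggttcagtggta
Pro-like, shorter: ggctttggtctaggggtatg
Pro-like, longer: ggctCGttggtctaggggta

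Of these 4 pairs the Asp-like one differed most between libraries. Reads of the shorter over the longer group came to 0.244 in Hen1 knockout cells with NaIO4, 0.313 in untreated Hen1 knockout cells, 4.11 in Mili knockout cells, 0.0754 in the immunoprecipitate, 0.104 in wild type with NaIO4 and 0.475 in untreated wild type. The shorter group had 1156 RPM in the Mili knockout and 611 in untreated wild type, while the longer had 281 in the Mili knockout and 1286 in untreated wild type. With NaIO4 in wild type the shorter group fell to 0.378 of its untreated share, and the longer was 1.73 times its untreated share. The Glu-like pair gave 0.625 in Hen1 knockout cells with NaIO4, 1.15 in untreated Hen1 knockout cells, 2.0 in Mili knockout cells, 0.579 in the immunoprecipitate, 0.264 in wild type with NaIO4 and 1.17 in untreated wild type. The Gly-like pair gave 0.556 in Hen1 knockout cells with NaIO4, 0.776 in untreated Hen1 knockout cells, 0.727 in Mili knockout cells, 0.338 in the immunoprecipitate, 0.334 in wild type with NaIO4 and 0.586 in untreated wild type. The Pro-like pair gave 4.45 in Hen1 knockout cells with NaIO4, 6.01 in untreated Hen1 knockout cells, 3.95 in Mili knockout cells, 5.82 in the immunoprecipitate, 4.34 in wild type with NaIO4 and 4.38 in untreated wild type, a narrower range, with the shorter group more abundant in all 6 libraries. Over all 12 pairs, the shorter over longer ratio was highest in the Mili knockout for 7 and in the untreated Hen1 knockout for 3. Whether the shorter groups are genomic copies, RNA or products of library preparation was not tested.

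Added 3′ bases marked part of the members close to longer transcripts. A member is called tailed when its first 22 or more bases match a transcript in the sense and its last 1 to 3 bases do not. An added base that happens to equal the next base of the transcript cannot be seen, so some tailing is missed. A last base that differs for another reason is counted as added, and the net effect was not measured. Of the 14108 tailed members of longer transcripts, 11118 had 1 added base, 1828 had 2 and 1162 had 3. The single added base was T in 8389 members, A in 2178 and C in 470. The sequence without the added bases was itself among the sequences of 25 to 31 nt for 9720 of them (68.9%).

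Mismatches elsewhere give the level to set this against. Of members 1 substitution away from a longer transcript at 1 position alone, 10416 had it at the last base and 574 at the first. At the positions counted back from the 3′ end, from the second to position 24, the number ran from 412 to 773 (median 469). The last base thus held 22.2 times the median of the other positions. Cutting 1 to 3 bases from the 5′ end in the same way gave 2743 members of longer transcripts.

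The tailed share was higher in the Hen1 knockout. Tailed and transcript-matched sequences alike had to pass the read sum, which gives deep libraries more weight. How far that choice moves the tailed share was not tested. Tailed reads as a share of tailed plus transcript-matched sense reads were 6.11% in Hen1 knockout cells with NaIO4, 6.47% in untreated Hen1 knockout cells, 3.58% in Mili knockout cells, 1.94% in the immunoprecipitate, 2.34% in wild type with NaIO4 and 2.77% in untreated wild type. The untreated Hen1 knockout was 2.34 times untreated wild type, and both Hen1 knockout libraries lay above all 4 others. The same share for 5′ bases was 1.1% in Hen1 knockout cells with NaIO4, 1.18% in untreated Hen1 knockout cells, 3.12% in Mili knockout cells, 0.88% in the immunoprecipitate, 0.813% in wild type with NaIO4 and 0.865% in untreated wild type, 1.36 times higher in the untreated Hen1 knockout than in untreated wild type. Reads with 1 added T made up 3.51% in Hen1 knockout cells with NaIO4, 3.82% in untreated Hen1 knockout cells, 0.82% in Mili knockout cells, 1.13% in the immunoprecipitate, 1.33% in wild type with NaIO4 and 1.53% in untreated wild type of the same total, and reads with 1 added A 1.17% in Hen1 knockout cells with NaIO4, 1.2% in untreated Hen1 knockout cells, 0.736% in Mili knockout cells, 0.184% in the immunoprecipitate, 0.288% in wild type with NaIO4 and 0.371% in untreated wild type. In the Hen1 knockout against wild type the added T was 2.5 times and the added A 3.24 times as frequent. Among reads with 1 added base, T made up 71% in Hen1 knockout cells with NaIO4, 73.3% in untreated Hen1 knockout cells, 41.2% in Mili knockout cells, 78.8% in the immunoprecipitate, 75.5% in wild type with NaIO4 and 73.6% in untreated wild type. The Mili knockout had 973 tailed reads in all, so its values rest on little.

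Of the tailed members of longer transcripts with enough reads in the Hen1 knockout against wild type, 278 of 364 were 2-fold or more higher and 20 lower (median ratio 5.25). Over all members with enough reads it was 1502 of 3725 (40.3%) higher and 915 (24.6%) lower, against 39.5% and 25.8% of all sequences. Both read minimums are met more easily through the deeper untreated Hen1 knockout. There 11594 tailed members of longer transcripts were seen, against 6041 in untreated wild type. The excess of higher members thus follows in part from the choice and is a description. The part without added bases averaged 26.6 nt in Hen1 knockout cells with NaIO4, 26.7 nt in untreated Hen1 knockout cells, 26.1 nt in Mili knockout cells, 27.1 nt in the immunoprecipitate, 27.2 nt in wild type with NaIO4 and 27.2 nt in untreated wild type. Transcript-matched sense reads averaged 27.2 nt in the untreated Hen1 knockout and 28.1 nt in untreated wild type.

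The 4 tailed members of longer transcripts described here were near absent from the Mili knockout. The Gm38246 member ends in an added T after a match to Gm38246, a long non-coding RNA gene at chr3:51103660-51105170 on the plus strand (GRCm38). It had 43.8 RPM in Hen1 knockout cells with NaIO4, 146 in untreated Hen1 knockout cells, 0.208 in Mili knockout cells, 174 in the immunoprecipitate, 146 in wild type with NaIO4 and 105 in untreated wild type, with the Mili knockout near 0. The Gm45104 member, on an unclassified transcript at chr7:18396516-18400865 on the minus strand, carries 3 added bases and had 21.9 RPM in Hen1 knockout cells with NaIO4, 75.8 in untreated Hen1 knockout cells, 0 in Mili knockout cells, 22.2 in the immunoprecipitate, 19.9 in wild type with NaIO4 and 18.8 in untreated wild type. The Gm30948 member, on the gene that the near matches above also lie closest to, had 20.7 RPM in Hen1 knockout cells with NaIO4, 65.5 in untreated Hen1 knockout cells, 0 in Mili knockout cells, 43.3 in the immunoprecipitate, 27.8 in wild type with NaIO4 and 13.2 in untreated wild type. The Gm45627 member, on a long non-coding RNA gene at chr8:34658106-34659369 on the minus strand, had 20.0 RPM in Hen1 knockout cells with NaIO4, 50.4 in untreated Hen1 knockout cells, 0 in Mili knockout cells, 9.94 in the immunoprecipitate, 10.1 in wild type with NaIO4 and 10.8 in untreated wild type. These 3 had no read in the Mili knockout. All 4 were picked for their reads in the untreated Hen1 knockout, so no fold against wild type is given.

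The 3 tailed small RNAs described here showed another pattern, which not every type of the class shared. The Mir182 member, a microRNA of the Mir182 hairpin at chr6:30165918-30165992 on the minus strand with 1 added T, had 89.1 RPM in Hen1 knockout cells with NaIO4, 299 in untreated Hen1 knockout cells, 1919 in Mili knockout cells, 26.1 in the immunoprecipitate, 58 in wild type with NaIO4 and 1182 in untreated wild type. It was 0.049 times its untreated share with NaIO4 in wild type (0.0451 to 0.0533) and 1.62 times the wild type share in the Mili knockout (1.58 to 1.67). The Rny1 member, from the Y RNA gene Rny1 at chr6:47788069-47788180 on the minus strand, had 36.1 RPM in Hen1 knockout cells with NaIO4, 136 in untreated Hen1 knockout cells, 1042 in Mili knockout cells, 0.753 in the immunoprecipitate, 26.4 in wild type with NaIO4 and 302 in untreated wild type. The Gm24920 member, from a small nucleolar RNA sequence found in 3 genes, had 3.46 RPM in Hen1 knockout cells with NaIO4, 80.8 in untreated Hen1 knockout cells, 502 in Mili knockout cells, 0.238 in the immunoprecipitate, 5.54 in wild type with NaIO4 and 157 in untreated wild type. All 3 were lowest in the immunoprecipitate and highest in the Mili knockout.

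The share of members lower with NaIO4 lay near the background in the Hen1 knockout and above it in wild type. In the Hen1 knockout, 1979 of 2729 (72.5%) were 2-fold or more lower and 297 (10.9%) higher, against 76.8% and 6.33% of all sequences. In wild type, 737 of 3227 (22.8%) were lower and 942 (29.2%) higher, against 10.3% and 35.5% of all sequences. Per microRNA hairpin read the count of lower members in the Hen1 knockout was 858, with no share over all sequences taken at that total. Tailed longer transcripts were lower in 257 of 298 in the Hen1 knockout and in 4 of 185 in wild type. Tailed small RNAs were lower in 90 of 114 in the Hen1 knockout and in 111 of 160 in wild type.

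A minor set of members held letters that match the end of the Illumina small RNA 5′ adapter as it is known. The letters CGACGATC, or GACGATC at the start, stood in 708 members. They had 8619 RPM in Hen1 knockout cells with NaIO4, 2094 in untreated Hen1 knockout cells, 4327 in Mili knockout cells, 133 in the immunoprecipitate, 2587 in wild type with NaIO4 and 2593 in untreated wild type together, and were 11.5% of the members' reads in the Hen1 knockout with NaIO4 and 0.157% in the immunoprecipitate. Of the 5 members named for their abundance in the Hen1 knockout with NaIO4, 2 were of this kind. They are gacgatctcttagatcgatgtggtgctc and the same sequence with 1 more c at its start. The first reached 1333 RPM there and 433 in the untreated Hen1 knockout. Whether the letters come from the adapter was not tested. Members that end in CCA, the letters that end mature tRNAs, were 1161, and they held 3.99% of the members' reads with NaIO4 and 0.644% without, both in Hen1 knockout cells.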

How the data were processed

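The deposited files hold counts of reads per distinct sequence, 1 file per library, with no header. The values are whole numbers whose totals differ between files, as raw counts do. The submitters' processing notes name Bowtie and the build mm10. How adapters were trimmed or lengths filtered is not stated in those sources. The labels report spike-ins without their sequences, so no absolute amount was derived.

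Sequences of 18 to 35 nt formed the total of each library. Each was matched exactly, on both strands, to all GENCODE M21 transcripts (GRCm38). Members without a match were tested for cuts of 1 to 3 bases at either end, for 1 substitution, and for up to 3 mismatches with bwa 0.7.19-r1273. Edit distances to annotated small RNAs used edlib 1.3.9.post1, and intervals and tables used scipy 1.17.1, numba 0.67.0 and pandas 2.3.3 under Python 3.11.15 with numpy 2.4.6. RefSeq windows and genes are of GRCm38.p6. The matching and the calls were tested on simulated data.

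The members and lists were chosen with earlier results of these data known. The sequences named by rule are the 5 members with the most reads in each library and the 3 most abundant in the immunoprecipitate with none in the Mili knockout, 1 per shared first 20 nt, and the 5 tailed members with the most reads in the untreated Hen1 knockout, 1 per gene. Of these, a few that carry the results are described. Members matching a gene on a chromosome left out here were passed over. With 1 library per group no test was possible. Copies made by PCR were not told apart by molecular identifiers, so reads are not independent molecules. Totals, read minimums, fold size, subsets of members and tail rules were varied.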

Additional observations from a re-analysis of the deposited data

Results flagged for a closer look

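The effect of NaIO4 went in opposite directions in the Hen1 knockout and in wild type for the classes and members below. Each group has 1 library, so the difference was not tested. Each value is the ratio of NaIO4 over untreated in the Hen1 knockout divided by that in wild type, and a value under 1 means lower in the Hen1 knockout and higher in wild type. Several of these members were named for their reads in 1 of these 4 libraries. Tailed members of longer transcripts had 0.181 and near matches of longer transcripts 0.253, against 0.17 for transcript-matched sequences. The Glu 29-nt form had 0.143 and the 29-nt form of the second Glu-like group 0.109. The Asp 29-nt form had 0.125 and its 26-nt form 0.291. The Lys 28-nt form had 0.0793 and the Val 29-nt form 0.119. A 28-nt member from the histidine tRNA gene n-THgtg7 had 0.11. The Gm30948-near 29-nt member had 0.165, its 26-nt form 0.117 and the Gm30948-near 27-nt member 0.192. The member of 29 nt that is not printed had 0.16 and its form of 28 nt 0.202. Among tailed members, Gm38246 had 0.215 and Gm30948 0.151. Members that begin like 5.8S rRNA had 0.353 at 27 nt and 0.62 at 26 nt.

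For the 28S forms the directions were the other way round, higher in the Hen1 knockout and lower in wild type. The value was 5.22 at 29 nt, 4.76 at 31 nt and 6.1 at 28 nt.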

How the results depend on the processing

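The share of the members moved with most choices. In the order Hen1 knockout with NaIO4 over untreated, wild type with NaIO4 over untreated, Hen1 knockout over wild type, Mili knockout over wild type and immunoprecipitate over wild type, the reported ratios were 0.662, 0.973, 1.16, 0.987 and 0.866. They were 0.639, 1.0, 1.19, 0.964 and 0.898 of all reads, 1.71, 12.2, 3.01, 0.557 and 19.7 per microRNA hairpin read, 0.917, 0.947, 1.37, 1.15 and 0.752 per read with any exact transcript match (small RNAs included), 1.05, 0.936, 1.07, 1.17 and 0.71 when each library's top 10 sequences were left out and 1.88, 0.791, 0.583, 1.09 and 0.264 with each sequence counted once. They were 0.744, 0.863, 1.08, 1.11 and 0.761 for members with 50 or more reads, 0.77, 0.828, 1.06, 1.16 and 0.716 with 100 or more, 0.58, 1.07, 1.17, 0.866 and 0.97 without the 100 most abundant members, 0.649, 0.884, 1.1, 1.06 and 0.795 without members 1 mismatch from a transcript and 0.66, 1.08, 1.16, 0.871 and 0.984 for 26 to 30 nt. The microRNA total itself differed between libraries. It came to 158218 reads for NaIO4-treated wild type and 213726 for the immunoprecipitate, against 1408898 for untreated wild type, not scaled to depth. For the Hen1 knockout it was 74674 after treatment and 867139 without it, and for the Mili knockout 1639510. Ratios per microRNA read carry these differences as well as those of the members. What caused the shifts between settings was not tested.

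In the same order, counts past 2-fold (lower, higher, higher, lower and higher) were 1979, 942, 1502, 409 and 3213. They were 5732, 3434, 5000, 1584 and 9879 with 20 or more reads, 419, 145, 257, 56 and 542 with 200, 1193, 235, 965, 342 and 1787 past 4-fold, 858, 2715, 2376, 586 and 5809 per microRNA read and 1622, 906, 1638, 387 and 2914 per read with any exact transcript match. With another read minimum the number of members tested changes too. The share over all sequences was not taken at these settings, so the counts alone do not show whether the members differ from it. Under the alternatives distinct members, without the 100 most abundant, without members 1 mismatch away and with 100 or more reads, T came first in 85.1%, 84.7%, 73% and 69.5% of the immunoprecipitate and 75.9%, 56.4%, 44.8% and 43.9% of untreated wild type. A at base 10 was 31.3%, 28.5%, 18.7% and 15.8% in the immunoprecipitate and 30.5%, 24.7%, 16.6% and 15.2% in untreated wild type. The mean length was 27.8 nt, 28.3 nt and 28.4 nt in the untreated Hen1 knockout and 28.1 nt, 28.4 nt and 28.4 nt in untreated wild type, for distinct members, without members 1 mismatch away and with 100 or more reads. Members counted as present in the immunoprecipitate were 84.4%, 88.1% and 5.21% among those with 100 or more reads, with a limit of 1 read and with a limit of 50 reads. Tailed reads were 5.28%, 6.28% and 5.54% in the Hen1 knockout and 2.09%, 2.69% and 2.3% in wild type with 1 added base only, a matched part of 24 nt and protein-coding genes only. Their ratio was 2.53, 2.33 and 2.41, against 2.34 as reported.

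No paired analysis was possible because each group has 1 library, and none can be left out in turn. The Hen1 knockout with NaIO4 is the shallowest library and limits what can be called there. Members of few reads have wide counting error, and the sum of 10 reads favours sequences of the deepest library, the immunoprecipitate.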
